A study of Mus musculus with 77 samples.

Results

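The libraries described here were the 12 RNA-seq libraries labelled OPC from mouse cerebral white matter, 6 from the stroke condition and 6 from the control condition, out of 77 libraries in the series. All 12 came from 1 count table, and every gene of that table was considered. OPC is the usual abbreviation for oligodendrocyte precursor cell. The series profiled separately the libraries labelled astrocyte, EC, pericyte and microglia from the same tissue and conditions, and its title places the work in vascular dementia with focal ischemia. The labels give the tissue, the cell type and the condition only. The strain, genotype, age and sex of the animals, how the ischemia was made, the time after it, how the cells were isolated and whether each library came from 1 animal or from a pool were not given in the sources used here. Separate animals or cultures are not stated for the libraries of a group, so the p-values below measure only the spread between these libraries, which may be technical.

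Oligodendrocyte precursor cells are the dividing glia of the adult brain that keep the receptor Pdgfra and the proteoglycan Cspg4 (NG2) on their surface and can turn into myelin-forming oligodendrocytes. On the way they pass through a committed stage marked by Gpr17 and Bcas1, and then switch on the myelin genes and the cholesterol and sphingolipid synthesis that myelin needs. After injury to white matter they are known to proliferate, to take up interferon and antigen presentation programs, and to be held back from maturing by matrix components such as chondroitin sulfate proteoglycans and by bone morphogenetic protein (BMP) signals.

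The 12 libraries held 54752585 to 71292806 counts over 52636 genes. Levels are given in CPM, each gene's count scaled to a common library size, after trimmed mean (TMM) scaling, and are compared between libraries for 1 gene at a time, since they are not divided by gene length. The label was checked against marker genes. The summed level of 12 OPC markers was 3786 to 4501 CPM in the controls and 4106 to 4746 CPM after stroke, against a mean of 498.5 CPM in the astrocyte controls and 696 CPM in the pericyte controls, each in its own table. The same libraries also held the 26 genes of mature oligodendrocytes at 105078 to 119585 CPM in the controls and 61492 to 82952 CPM after stroke, against means of 6818 CPM in the astrocyte controls and 43514 CPM in the pericyte controls. The libraries thus carried transcripts of mature oligodendrocytes beside those of precursors.

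Markers of other cells moved with the condition. Their counts of calls are set beside 11.7% higher and 8.77% lower over all genes tested. All 14 microglial markers rose, with a summed level of 114 to 214 CPM in the controls and 832 to 1400 CPM after stroke, against a mean of 25909 CPM in the 9 stroke libraries labelled microglia P2. Astrocyte markers summed to 633 to 937 CPM in the controls and 1484 to 4276 CPM after stroke, against a mean of 38142 CPM in the astrocyte controls. Of the 12, 8 rose, among them Gfap and Aqp4, while Slc1a2, Aldoc, Gjb6 and S1pr1 did not pass the test. Neuronal markers summed to 522 to 1266 CPM in the controls and 304 to 565 CPM after stroke, overlapping ranges, and 7 of 12 fell. Of 8 fibroblast markers, 5 rose, 1 fell and 2 did not pass. Their summed level was 16.1 to 26.4 CPM in the controls and 44.9 to 113 CPM after stroke. In the pericyte libraries the mean of this sum was 3485 CPM in the controls and 12953 CPM after stroke. Of 11 endothelial markers, 2 rose and 9 did not pass, and their sums overlapped (73.3 to 90.9 CPM in the controls, 63.0 to 92.9 CPM after stroke). The neutrophil sum was 1.11 to 5.60 CPM in the controls and 10.5 to 40.4 CPM after stroke, and the sum of monocyte and border macrophage markers was 0.281 to 1.94 CPM and 4.46 to 8.82 CPM. Most of the neutrophil sum was Csf3r, at 0.960 to 5.38 CPM in the controls and 9.49 to 40.0 CPM after stroke. Csf3r stood at a median of 855 CPM in the microglia P2 stroke libraries. The defining markers S100a8, S100a9, Cd3e and Cd8a were too low to test, as were most genes of the neutrophil and lymphocyte lists. The part of these transcripts in the changes below was not tested. For most genes with a higher level after stroke that are described by library, the level in other libraries is given beside them. First comes the median of the microglia P2 stroke libraries, then the means of the astrocyte control and the astrocyte stroke libraries, each scaled within its own table.

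3 libraries were taken to stand apart, chosen after the data were seen. Control 12 lay away from the other controls on the second principal component and had the highest neuronal sum (1266 CPM). Stroke 8 had the highest astrocyte sum (4276 CPM, the other 5 at 1484 to 2316) and the lowest interferon sum after stroke (1196 CPM, the others at 2234 to 3189). Control 11 had the choroid plexus transcript Ttr at 250.2 CPM, with 0.289 to 12.2 CPM in the other controls. Control 6 was not among the 3, though it held the highest interferon sum of the controls (1081 CPM). By the mean chi-square per gene between libraries of 1 group, its pairs with control 7 and control 12 differed most of all (166.6 and 153.8). Control 11 and control 9 were the closest pair of controls (26.4). Fits without the 3 libraries therefore still hold control 6. Some results that rest on these libraries are given with and without them.

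**Figure D1:**
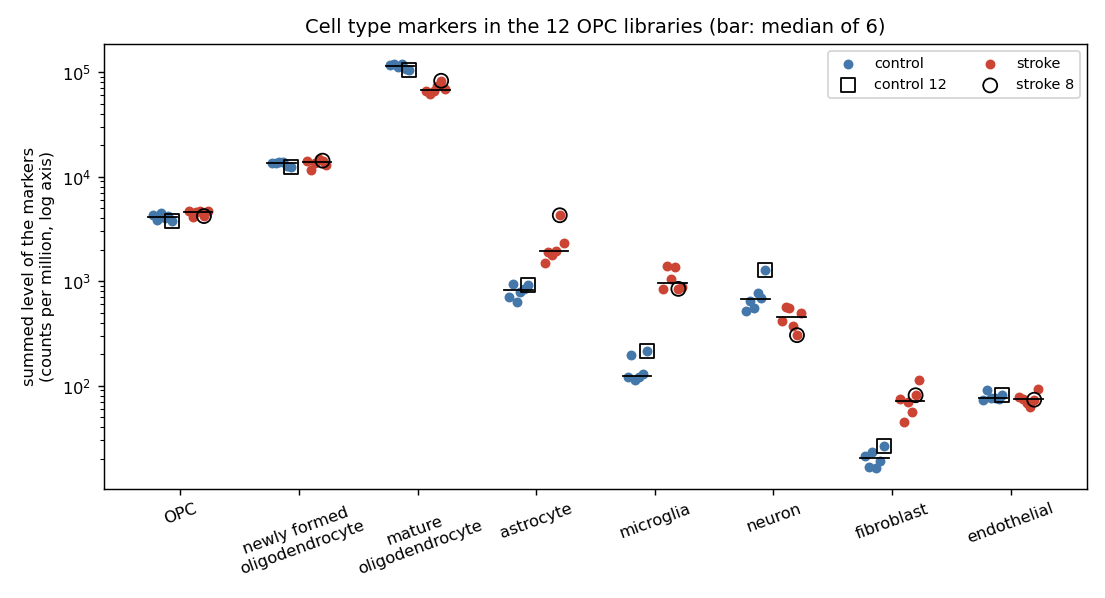
Summed level of each cell type's markers in CPM (log axis) in the 6 control (blue) and 6 stroke (red) libraries labelled OPC, with the median of each group as a bar, control 12 in a square and stroke 8 in a ring. The OPC and newly formed oligodendrocyte sums overlapped between the groups, the mature oligodendrocyte sum was lower in all 6 stroke libraries, and the microglia and astrocyte sums were higher in all 6.

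Stroke was accompanied by a wide change of the transcriptome. Of 18167 genes that passed the filter on low counts, 3726 were called at an adjusted p below 0.05 (edgeR's quasi-likelihood test, Benjamini-Hochberg), or 20.5% of those tested, 2133 of them higher (11.7%) and 1593 lower (8.77%). The larger changes were mostly increases: 1238 called genes (6.81%) changed at least 2-fold, 1098 upward and 140 downward. The 2 groups did not overlap at all for 2012 genes (11.1%), 1306 higher (7.19%) and 706 lower (3.89%). Changes are given below as log2 fold changes of stroke over control with their standard errors, from 6 libraries a group; a gene rose or fell only where it was called. Scaled to library totals alone, the median change over all genes moved from -0.01 to 0.11 on the log2 scale and the split became 3347 higher and 804 lower. Without control 11, control 12 and stroke 8, 3374 genes were called, 2115 higher and 1259 lower.

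Precursor markers gave 3 calls, all below 2-fold. Pdgfra, the receptor for platelet-derived growth factor (ENSMUSG00000029231, chromosome 5, 75152292 to 75198215 on the plus strand), stood at 719 to 1288 CPM in the controls (median 1065) and 829 to 1224 CPM after stroke (median 1174). These ranges overlapped, and the log2 fold change of 0.09 ± 0.12 (adjusted p = 0.65) did not pass the test. Of the 12 OPC markers, 3 rose, none fell and 9 did not pass, beside 11.7% higher and 8.77% lower over all genes tested. Their median log2 change was 0.14, and under scaling to library totals alone 6 rose. The 3 that rose were Tnr, the matrix glycoprotein tenascin R, at 265 to 374 CPM in the controls (median 319.6) and 371 to 453 CPM after stroke (median 410.4), Matn4, a matrix adaptor protein, and Pcdh15, a cadherin. Tnr rose by 0.38 ± 0.08 (adjusted p = 0.0042), Matn4 by 0.30 ± 0.08 (adjusted p = 0.017) and Pcdh15 by 0.31 ± 0.09 (adjusted p = 0.028). Tnr stood beside 1.33 CPM in microglia and 29.2 and 25.3 CPM in astrocyte libraries. In Tnr and Matn4 the groups overlapped by a narrow margin. The call of Pcdh15 ended when any of 6 libraries was left out (1 at a time), and that of Matn4 ended without the 3 libraries that stood apart (log2 0.27). Cspg4, Ptprz1 and Lhfpl3 changed by 0.17, 0.19 and 0.08 on the log2 scale and did not pass.

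Lineage factors and markers shared by all stages came next. Among 7 of them, 1 fell and 6 did not pass, with a median of -0.04, beside 8.77% of all genes tested that fell. Olig1, a transcription factor needed for myelin repair, fell by 0.30 ± 0.07 on the log2 scale (adjusted p = 0.0096), from 5561 to 6983 CPM in the controls (median 6107) to 4428 to 5625 CPM after stroke (median 5056). Its groups overlapped at their edges, and the call was lost under scaling to library totals alone (-0.18). Olig2 (log2 -0.10) and Sox10 (log2 -0.02) did not pass.

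Genes of committed and newly formed oligodendrocytes gave 1 call. Gpr17, a receptor that marks the committed stage, stood at 1069 to 2166 CPM in the controls (median 1888) and 1796 to 2418 CPM after stroke (median 2233), overlapping ranges, and its log2 change of 0.28 ± 0.14 (adjusted p = 0.19) did not pass. Of 13 genes tested, 1 rose and 12 did not pass, with a median of -0.06, beside 11.7% of all genes that rose. The gene that rose was Itpr2, a calcium release channel used as a marker of newly differentiating cells, at 110.5 to 196 CPM in the controls (median 168) and 206 to 289 CPM after stroke (median 240.1). All 6 stroke libraries lay above all 6 controls (log2 0.54 ± 0.12, adjusted p = 0.006), beside 249 CPM in microglia and 32.8 and 45.1 CPM in astrocyte libraries. Bcas1 changed by 0.23 ± 0.08 (adjusted p = 0.068) on the log2 scale and did not pass, but it passed under 4 of the alternatives.

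Myelin genes fell together. Of the 26 genes of mature oligodendrocytes, 23 fell, 1 rose and 2 did not pass, with a median log2 change of -0.75, beside a median of -0.01 and a share of 8.77% lower over all genes tested. Mog, myelin oligodendrocyte glycoprotein (ENSMUSG00000076439, chromosome 17, 37010743 to 37023398 on the minus strand), stood at 1448 to 1899 CPM in the controls (median 1748) and 764 to 915 CPM after stroke (median 828). The groups did not overlap, and the level fell by 1.07 ± 0.07 on the log2 scale (adjusted p = 3.2e-07). Mal, a raft protein of compact myelin, was at 2188 to 2903 CPM in the controls (median 2402) and 742 to 1098 CPM after stroke (median 1036). Every stroke library was below every control, with stroke 8 the lowest, and the fall was 1.30 ± 0.10 on the log2 scale (adjusted p = 6.5e-07). Opalin fell by 1.23 and Ermn, a cytoskeletal protein of the myelin sheath, by 1.10 on the log2 scale, while Mbp, myelin basic protein, fell by 0.58. Myrf, the transcription factor that turns the myelin genes on, was at 182 to 301 CPM in the controls (median 234) and 202 to 283 CPM after stroke (median 258). Those ranges overlapped, and its change of 0.05 ± 0.12 (adjusted p = 0.83) did not pass. The exception that rose was Klk6, a protease that mature oligodendrocytes secrete, from 3.06 to 17.4 CPM (medians, log2 2.49 ± 0.27, adjusted p = 1.1e-05). In bulk samples such as these, fewer cells of a type and less RNA per cell cannot be told apart. Leaving out the 3 libraries that stood apart gave 22 lower.

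**Figure D2:**
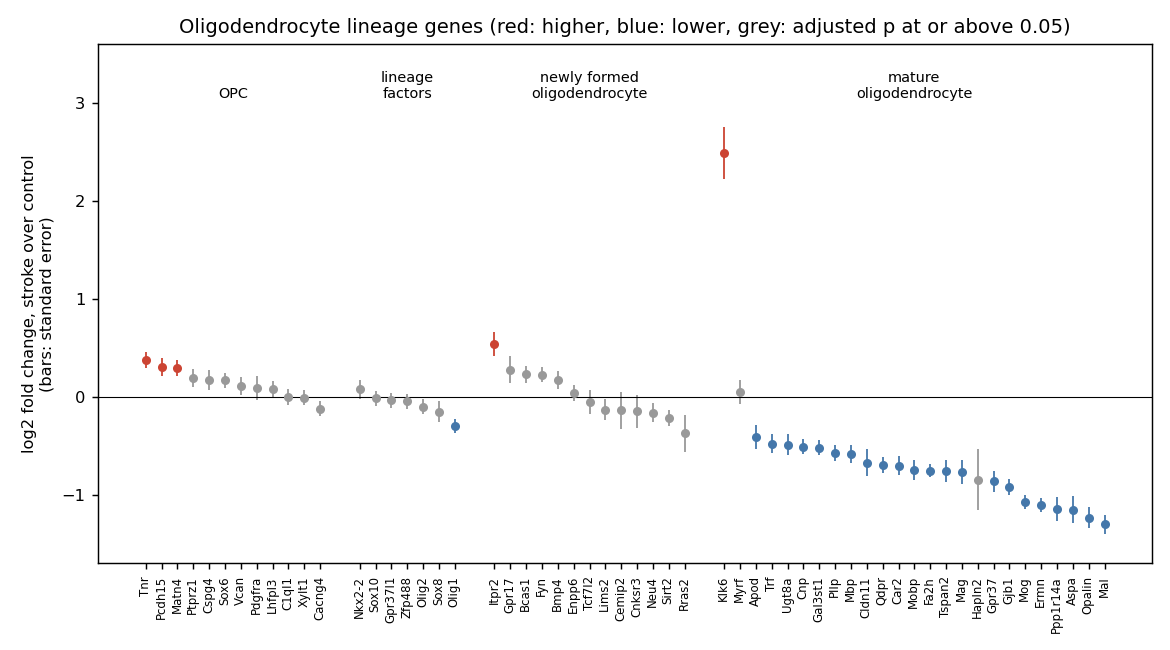
Log2 fold change of stroke over control for genes of the OPC, lineage, newly formed and mature oligodendrocyte lists (1 gene of the mature list is not drawn), with its standard error as a bar (red higher, blue lower, grey not called). The first 3 lists lie around 0, while 23 of the 26 mature genes are called below it, from Apod at -0.41 to Mal at -1.30, Hapln2 is below it without a call, and Klk6 stands at 2.49.

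Lipid synthesis genes fell in part. Cholesterol synthesis had 16 genes lower, none higher and 6 that did not pass out of 22, with a median log2 change of -0.52. Over all genes tested, 8.77% were lower. Msmo1, an oxidase that removes methyl groups from sterols (ENSMUSG00000031604, chromosome 8, 64718139 to 64733792 on the minus strand), was at 304 to 422 CPM in the controls (median 332) and 160.4 to 235 CPM after stroke (median 208). No stroke library reached the lowest control, and the level fell by 0.79 ± 0.11 on the log2 scale (adjusted p = 9.1e-05). Sc5d, which acts near the end of the pathway, fell by 0.59 ± 0.08 on the log2 scale (adjusted p = 7.4e-05), from a median of 152 to 97.7 CPM. Fdft1, squalene synthase, fell by 0.58 ± 0.09 on the log2 scale (adjusted p = 3.6e-04). Srebf2, the transcription factor over the pathway, was at a log2 change of -0.13 and did not pass. Without the 3 libraries that stood apart, 17 fell.

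Fatty acid and sphingolipid synthesis, which supplies the lipids of myelin among others, gave a mixed list, 6 lower, 3 higher and 10 not passing of 19 (1 higher without stroke 2, without stroke 3 or without stroke 8). The shares over all genes tested were 8.77% lower and 11.7% higher. Cers2, the ceramide synthase for very long chains, fell from 748 to 958 CPM in the controls (median 909.9) to 467 to 602 CPM after stroke (median 483), with no overlap, by 0.81 ± 0.08 on the log2 scale (adjusted p = 4.7e-06). Degs1, which makes ceramide from dihydroceramide, fell by 0.72 and Elovl1, which lengthens fatty acids, by 0.80 on the log2 scale. Fads2, a desaturase for polyunsaturated fatty acids, rose by 0.63 ± 0.12 (adjusted p = 0.0017). Among 15 genes of cholesterol efflux and lipid storage, 6 rose and 3 fell, beside the same shares over all genes. The 3 falls became 0 without control 6, stroke 3 or stroke 5 or under scaling to library totals alone, and 1 without control 4, 7 or 11 or stroke 2, 8 or 10. Ch25h, which makes the immune-regulating sterol 25-hydroxycholesterol, rose from a control median of 0.0501 to 6.14 CPM and was at 54.9 CPM in the microglia P2 stroke libraries, and the lipid droplet protein Plin2 rose by 0.72 on the log2 scale.

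2 further genes that fell were chosen after their values were seen. Desi1, a desumoylating enzyme, was at 425 to 488 CPM in the controls (median 464) and 250.1 to 265 CPM after stroke (median 254). Slc48a1, a heme transporter, was at 443 to 497 CPM in the controls (median 481) and 247 to 282 CPM after stroke (median 269). Neither gene had any overlap, and the stroke values lay close together. Their falls were 0.85 ± 0.05 on the log2 scale (adjusted p = 1.7e-07) and 0.82 ± 0.06 on the log2 scale (adjusted p = 3.2e-07).

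**Figure D3:**
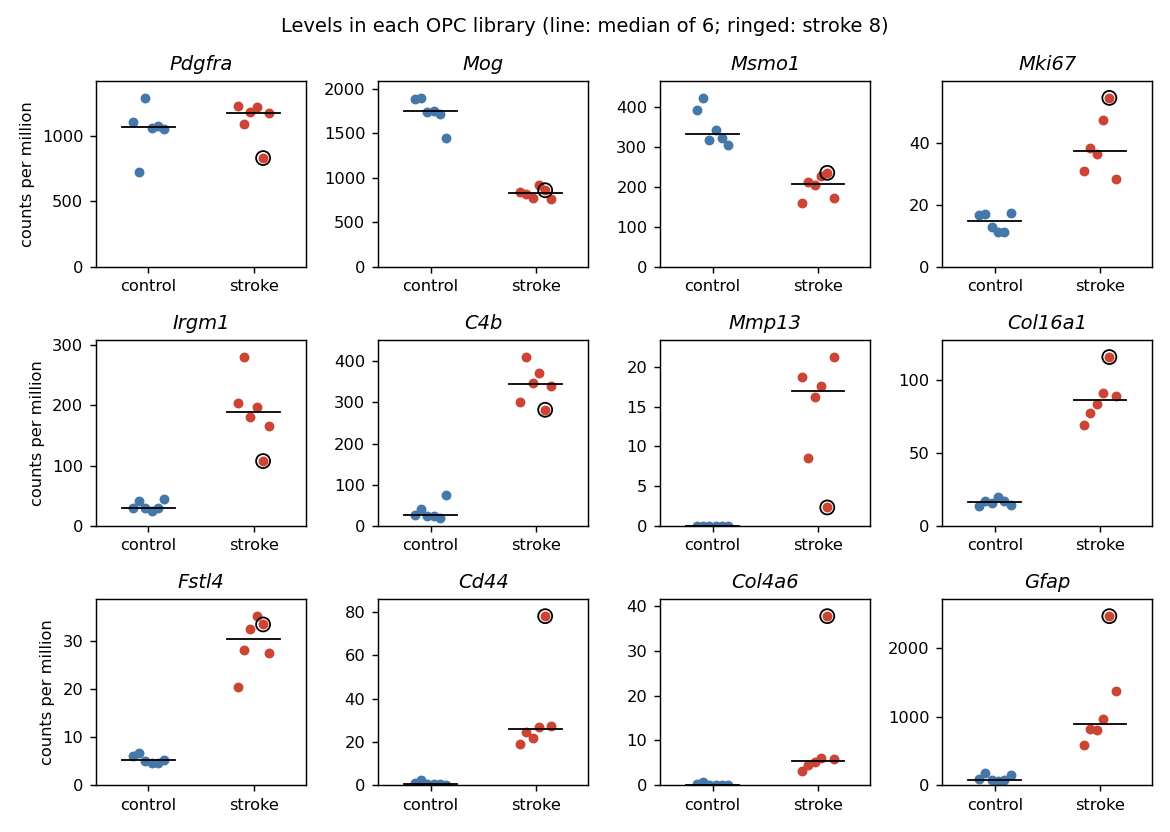
Level in CPM of 12 genes in each of the 6 control (blue) and 6 stroke (red) libraries, with the median as a line and stroke 8 ringed; every axis starts at 0. Pdgfra overlapped between the groups, Mog and Msmo1 were lower in all 6 stroke libraries, the other genes were higher in all 6, and for Cd44, Col4a6 and Gfap stroke 8 was far above the other stroke libraries.

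Cell cycle genes rose moderately. Of 25 genes, 17 rose, none fell and 8 did not pass, with a median log2 change of 0.52. Over all genes tested, 11.7% were higher. Mki67, the nuclear antigen of dividing cells (ENSMUSG00000031004, chromosome 7, 135689784 to 135716361 on the minus strand), was at 11.0 to 17.3 CPM in the controls (median 14.9) and 28.4 to 54.5 CPM after stroke (median 37.3). All stroke libraries were above all controls, with stroke 8 the highest. Its log2 change was 1.45 ± 0.17 (adjusted p = 2.5e-05), beside 236 CPM in microglia and 2.06 and 7.94 CPM in astrocyte libraries. Cenpf, a kinetochore protein, rose by 1.16, Plk1, a mitotic kinase, by 0.72 and Top2a, the topoisomerase of dividing cells, by 0.61 on the log2 scale. Ccnb2, a mitotic cyclin, was at 12.3 to 17.4 CPM in the controls (median 13.9) and 20.6 to 33.9 CPM after stroke (median 25.1). Its groups did not overlap (log2 0.82 ± 0.13, adjusted p = 3.2e-04), beside 2.11 CPM in microglia and 1.39 and 6.79 CPM in astrocyte libraries. Ccnd1, the cyclin that drives entry into the cycle, was at 181 to 225 CPM in the controls (median 205) and 171 to 240.3 CPM after stroke (median 198) and did not pass (log2 -0.02). Leaving out the 3 libraries that stood apart gave 14 higher.

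The cell cycle homology region, searched as TTTGAA on both strands, is a promoter element known from mitotic genes. It was found in the 250 bases before the RefSeq start of 6 of the 21 tested cell cycle genes that have a promoter in the table used, beside 13.0% of the 12352 tested genes with one and 5 of 21 interferon genes. The promoter of Mki67 holds it at 116 and 98 bases before the start, shown here because the gene led the list, on GRCm38.p6 with the matches in capitals.
Mki67, chr7:135716380-135716629, minus strand: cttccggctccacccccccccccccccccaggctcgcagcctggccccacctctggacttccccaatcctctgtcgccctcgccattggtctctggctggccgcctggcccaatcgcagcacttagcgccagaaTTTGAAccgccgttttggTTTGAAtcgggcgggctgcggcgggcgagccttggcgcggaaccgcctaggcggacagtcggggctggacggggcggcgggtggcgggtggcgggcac
A match describes the letters and shows no binding.

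Growth factor signalling was mixed, beside 11.7% higher and 8.77% lower over all genes tested. Among 27 genes, 6 rose, 3 fell (1 under scaling to library totals alone) and 18 did not pass. Fgfr1, the receptor for fibroblast growth factor, rose from 20.4 to 28.0 CPM in the controls (median 23.1) to 29.0 to 43.7 CPM after stroke (median 32.6), without overlap (log2 0.55 ± 0.11, adjusted p = 0.0018), beside 0.105 CPM in microglia and 269 and 286 CPM in astrocyte libraries. Erbb2, a partner of the neuregulin receptors, rose by 1.81 ± 0.35 (adjusted p = 0.0017) at a low level (median 2.72 CPM after stroke, beside 0 CPM in microglia and 22.2 and 25.1 CPM in astrocyte libraries). Igf1, which supports survival of the lineage, rose from 0.497 to 6.20 CPM (medians), beside 60.7 CPM in microglia and 3.85 and 15.3 CPM in astrocyte libraries.

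Of 25 Notch, BMP and Wnt genes, 7 rose, 1 fell and 17 did not pass. Over all genes tested, 11.7% were higher and 8.77% lower. Id3, an inhibitor of differentiation factors that BMP induces, was at 28.8 to 53.5 CPM in the controls (median 34.0) and 105 to 352 CPM after stroke (median 129). The groups did not overlap and stroke 8 was far above the rest. Its log2 change was 2.11 ± 0.28 (adjusted p = 6.8e-05), and 1.71 without stroke 8. Id3 stood beside 0 CPM in microglia and 1308 and 1460.0 CPM in astrocyte libraries. Id1 rose by 2.05 ± 0.28 (adjusted p = 8.3e-05), and by 1.70 without stroke 8. It stood beside 0 CPM in microglia and 106 and 132 CPM in astrocyte libraries. The ligand Bmp7 was at 51.7 to 71.6 CPM in the controls (median 65.8) and 76.4 to 97.8 CPM after stroke (median 90.9). All stroke libraries were above all controls (log2 0.50 ± 0.09, adjusted p = 7.5e-04), beside 0 CPM in microglia and 6.88 and 9.06 CPM in astrocyte libraries.

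Guidance cues and receptors moved in both directions, 7 higher, 5 lower (3 under scaling to library totals alone) and 9 not passing of 21. The shares over all genes tested were 11.7% higher and 8.77% lower. Unc5b, a netrin receptor, fell from 72.3 to 98.5 CPM in the controls (median 93.9) to 43.3 to 61.9 CPM after stroke (median 46.0), with no overlap, by 0.89 ± 0.10 on the log2 scale (adjusted p = 1.7e-05). Efnb3, an ephrin that oligodendrocytes carry, fell by 0.74 ± 0.11 on the log2 scale (adjusted p = 1.5e-04). Plxnb1, a semaphorin receptor, rose by 0.63 ± 0.09 (adjusted p = 1.4e-04).

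The extracellular surroundings changed as well. Of 15 chondroitin sulfate proteoglycan and hyaluronan genes, 5 rose (9 under scaling to library totals alone), 2 fell and 8 did not pass. Over all genes tested, 11.7% were higher and 8.77% lower. Cd44, the receptor for hyaluronan, was at 0.184 to 2.28 CPM in the controls (median 0.462) and 19.0 to 78.2 CPM after stroke (median 25.7). The groups were wide apart, and the 5 stroke libraries other than stroke 8 reached at most 27.1 CPM. The log2 change was 5.45 ± 0.57 (adjusted p = 8.3e-06), and 6.18 without control 6, which held the highest control level, and 4.67 without the 3 libraries that stood apart. It stood beside 15.4 CPM in microglia and 67.9 and 175 CPM in astrocyte libraries, and stroke 8 had the highest astrocyte sum. Tnc, the tenascin of injured tissue, rose by 2.43 on the log2 scale to a median of 3.59 CPM, beside 0 CPM in microglia and 30.5 and 29.8 CPM in astrocyte libraries. Tnfaip6, which links proteins to hyaluronan, moved the other way, from 111 to 150.0 CPM in the controls (median 118) to 60.5 to 79.6 CPM after stroke (median 71.3). None of its stroke values reached the lowest control (fall of 0.84 ± 0.09 on the log2 scale, adjusted p = 1.3e-05). Itih3, whose chain Tnfaip6 transfers to hyaluronan, fell by 1.07 ± 0.12 on the log2 scale (adjusted p = 2.0e-05).

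Interferon response genes rose almost without exception. Of 29 tested, 28 rose, none fell and 1 (Ifi27) did not pass, with a median log2 change of 2.73, beside 11.7% of all genes that rose. Irgm1, an immunity-related GTPase (ENSMUSG00000046879, chromosome 11, 48861968 to 48871683 on the minus strand), was at 24.5 to 44.1 CPM in the controls (median 29.8) and 107 to 280.3 CPM after stroke (median 189). The groups were far apart and stroke 8 was the lowest stroke library. Its log2 change was 2.51 ± 0.20 (adjusted p = 9.9e-07), beside 21.8 CPM in microglia and 68.8 and 154 CPM in astrocyte libraries. Ifih1, a sensor of double-stranded RNA, was at 1.76 to 3.38 CPM in the controls (median 2.68) and 8.52 to 28.1 CPM after stroke (median 20.6). There was no overlap, and stroke 8 was again the lowest. The log2 change was 2.91 ± 0.24 (adjusted p = 1.1e-06), beside 157 CPM in microglia and 11.8 and 17.7 CPM in astrocyte libraries. Ifitm3, a membrane protein that blocks virus entry, rose by 2.73, Isg15, a ubiquitin-like modifier, by 4.24 and Dhx58, a partner of Ifih1, by 3.46 on the log2 scale. Ifitm3 reached a median of 113 CPM, beside 242 CPM in microglia and 234 and 535 CPM in astrocyte libraries, and Dhx58 one of 7.59 CPM, beside 40.9 CPM in microglia and 2.90 and 9.93 CPM in astrocyte libraries. Isg15 stood at 0.963 to 3.35 CPM in the controls (median 1.54) and 6.69 to 50.1 CPM after stroke (median 37.7). All stroke libraries were higher, beside 4.17 CPM in microglia and 8.12 and 34.2 CPM in astrocyte libraries. Microglial markers rose in the same libraries, and their part in the interferon values was not tested. Stroke 2 was highest in both sums (1400 and 3189 CPM), stroke 8 had the second lowest microglial sum (843 CPM) and the lowest interferon sum (1196 CPM), and stroke 1 had the lowest microglial sum (832 CPM) and the second highest interferon sum (2720 CPM). Without the 3 libraries that stood apart, 28 rose.

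Interferon acts through promoters that carry the interferon stimulated response element, searched here on both strands as GAAA, any 2 bases and GAAA again. Within the 250 bases before the RefSeq start it was present in 11 of the 21 tested interferon genes with a promoter in the table, in 6.62% of the 1602 called higher with one, in 2.71% of the 1181 called lower, and in 3.24% of all 12352 tested. The element is shown in capitals with the bases around it for all 11 genes (GRCm38.p6, read along the gene's strand), because it is the known element of interferon signalling; of all 400 tested genes that carry it, 106 were called higher and 32 lower. A match in the opposite direction reads TTTC, 2 bases and TTTC.
Bst2, chr8:71537577-71537606, minus strand: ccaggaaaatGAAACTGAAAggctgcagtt
Gbp2, chr3:142620594-142620623, plus strand: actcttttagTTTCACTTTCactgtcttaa
Gbp3, chr3:142559995-142560024, plus strand: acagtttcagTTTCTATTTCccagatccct
Ifit1, chr19:34640794-34640823, plus strand: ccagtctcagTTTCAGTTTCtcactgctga
Ifit3, chr19:34583397-34583426, plus strand: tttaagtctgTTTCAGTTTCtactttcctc
Igtp, chr11:58199512-58199541, plus strand: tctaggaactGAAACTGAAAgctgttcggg
Irgm1, chr11:48871425-48871454, minus strand: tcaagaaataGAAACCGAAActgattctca
Isg15, chr4:156200865-156200894, minus strand: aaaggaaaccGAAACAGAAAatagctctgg
Oas1a, chr5:120907526-120907549, minus strand: tcgggaaatgGAAACTGAAAatct
Rsad2, chr12:26456553-26456582, minus strand: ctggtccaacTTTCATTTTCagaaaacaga
Stat2, chr10:128270266-128270295, plus strand: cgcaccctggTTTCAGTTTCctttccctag
In Irgm1 the element was present in 2 overlapping copies, at 30 and 24 bases before the start. Ifih1 and Ifitm3 had no match in this window, which says nothing about other forms of the element or about binding.

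Antigen presentation followed. Of 18 genes, 17 rose and 1 (Ciita) did not pass, with a median log2 change of 2.11, beside 11.7% of all genes that rose. Psmb9, a subunit of the immunoproteasome that cuts peptides for MHC class I, was at 1.60 to 2.75 CPM in the controls (median 1.93) and 7.89 to 28.9 CPM after stroke (median 17.9). The groups did not overlap (log2 3.17 ± 0.25, adjusted p = 9.2e-07), beside 35.4 CPM in microglia and 15.1 and 33.2 CPM in astrocyte libraries. Psmb8, its partner, rose by 3.06 and Tap1, the peptide transporter, by 2.26 on the log2 scale, to medians of 39.8 and 48.5 CPM. Psmb8 stood beside 44.3 CPM in microglia and 22.0 and 46.5 CPM in astrocyte libraries, and Tap1 beside 106 CPM in microglia and 24.8 and 45.7 CPM in astrocyte libraries. H2-K1, a class I heavy chain, was already abundant and went from 112 to 183 CPM in the controls (median 126) to 208 to 419.8 CPM after stroke (median 315). No control reached the lowest stroke library (log2 1.20 ± 0.16, adjusted p = 6.6e-05), beside 485 CPM in microglia and 300.3 and 506 CPM in astrocyte libraries. The class II chain H2-Ab1 rose from 2.70 to 4.63 CPM in the controls (median 2.88) to 14.9 to 32.4 CPM after stroke (median 17.2). Stroke 2 was far above the rest, beside 21.2 CPM in microglia and 9.57 and 22.4 CPM in astrocyte libraries. H2 genes are close copies of each other, so reads may be divided between them with error.

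Among 12 genes known from reactive oligodendrocytes, 7 rose, 2 fell and 3 did not pass, beside 11.7% higher and 8.77% lower over all genes tested. C4b, complement component 4, was at 18.9 to 75.1 CPM in the controls (median 25.3) and 282 to 410.4 CPM after stroke (median 344). Every stroke library was far above every control, and stroke 8 was the lowest of the 6. The log2 change was 3.29 ± 0.30 (adjusted p = 2.5e-06), beside 15.5 CPM in microglia and 657 and 675 CPM in astrocyte libraries. Serpina3n, a secreted protease inhibitor of reactive glia, was at 23.2 to 272 CPM in the controls (median 30.6) and 583 to 1573 CPM after stroke (median 728). Control 6 held 272 CPM and the other controls at most 78.6 CPM. The log2 change was 3.49 ± 0.61 (adjusted p = 7.8e-04), and 4.52 without control 6, beside 0 CPM in microglia and 337 and 622 CPM in astrocyte libraries. Socs3, a brake on cytokine signalling, rose from 5.14 to 8.31 CPM in the controls (median 6.20) to 28.6 to 73.9 CPM after stroke (median 34.6). Its groups did not overlap (log2 2.65 ± 0.23, adjusted p = 1.5e-06), beside 0.295 CPM in microglia and 20.0 and 30.8 CPM in astrocyte libraries. Tnfrsf1a, the receptor for tumor necrosis factor, rose by 1.05 ± 0.10 (adjusted p = 5.8e-06), and the protease Klk8 by 2.84 ± 0.28 (adjusted p = 6.0e-06). Klk8 reached a median of 4.42 CPM, beside 12.4 CPM in microglia and 0.749 and 5.59 CPM in astrocyte libraries.

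Cytokine, chemokine and adhesion genes rose in 15 of 18 cases and fell in 2. For these and the complement genes below, the shares over all genes tested were 11.7% higher and 8.77% lower. Cxcl10, a chemokine induced by interferon, was at 0.0296 to 1.47 CPM in the controls (median 0.187) and 8.52 to 52.97 CPM after stroke (median 32.0). The groups were apart, with stroke 8 the lowest and control 12 the highest of the controls. Its log2 change was 6.30 ± 0.63 (adjusted p = 5.7e-06), and 7.30 without control 12, beside 27.5 CPM in microglia and 22.8 and 66.8 CPM in astrocyte libraries. Ccl2, which draws monocytes, rose by 4.32 ± 0.39 (adjusted p = 2.2e-06) and the adhesion molecule Icam1 by 2.96 ± 0.28 (adjusted p = 3.3e-06). Cxcl13 and Ccl12 belonged to the 10 largest increases among genes with at least 10 CPM, at 5.79 and 5.57 on the log2 scale. Without control 12 these became 6.89 and 6.24, beside 4.05 CPM in microglia and 0.582 and 2.11 CPM in astrocyte libraries for Cxcl13 and 121 CPM in microglia and 1.77 and 14.6 CPM in astrocyte libraries for Ccl12. Complement genes rose in 10 of 13 cases, including the early protease C1ra (log2 2.14) and its inhibitor Serping1 (log2 2.37). Serping1 reached a median of 14.9 CPM, beside 0 CPM in microglia and 120.4 and 192 CPM in astrocyte libraries.

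**Figure D4:**
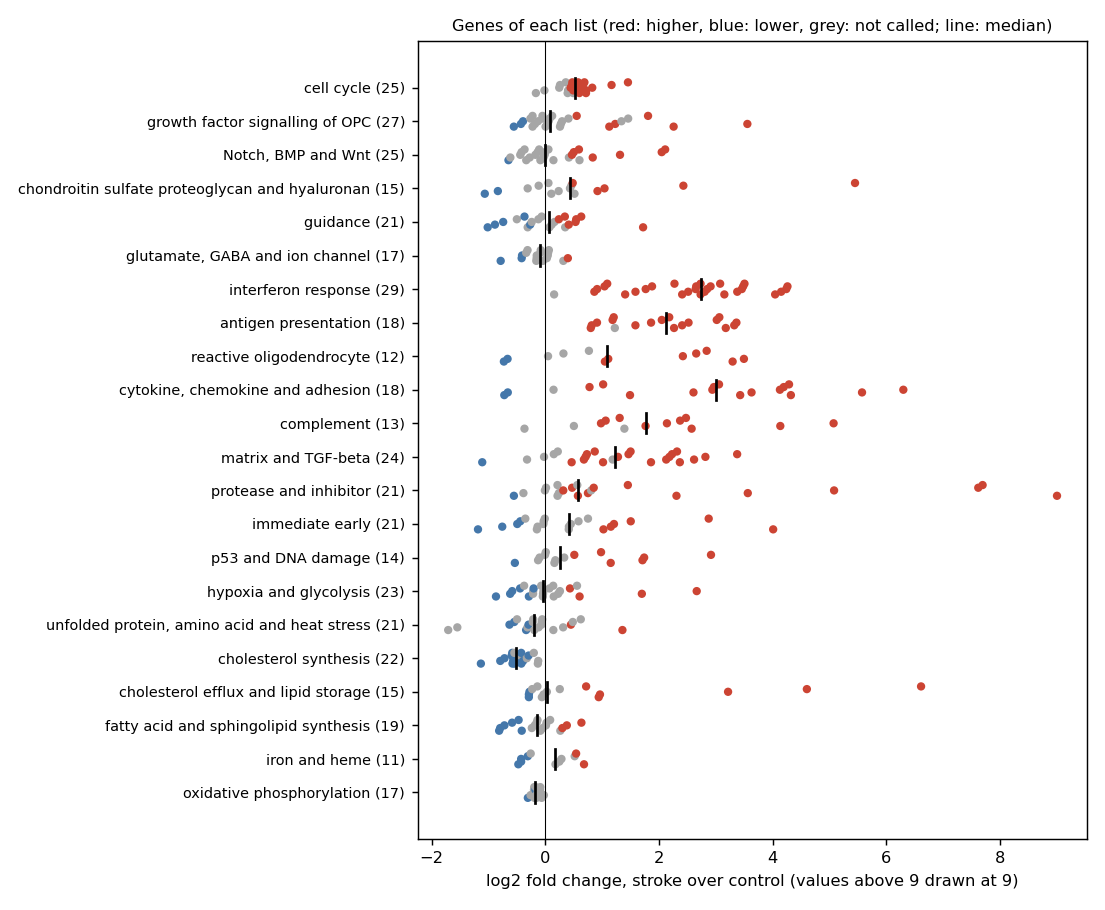
Log2 fold change of stroke over control for the tested genes of 22 lists (points, red higher, blue lower, grey not called), with the number tested in brackets and the median as a line; Mmp3, above 9, is drawn at 9. The interferon list had a median of 2.73 with 28 of 29 higher, antigen presentation 2.11, and cholesterol synthesis -0.52 with 16 of 22 lower.

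Matrix metalloproteinases held the 4 largest increases among called genes of at least 10 CPM. Mmp10, Mmp13 and Mmp3, which degrade matrix proteins and activate other proteases, had 0 counts in all 6 controls. Mmp10 (ENSMUSG00000047562, chromosome 9, 7502352 to 7510240 on the plus strand) was at 8.98 to 43.4 CPM after stroke (median 18.7), and all 6 stroke libraries were above the controls. Mmp13 was at 2.31 to 21.2 CPM after stroke (median 16.9), with stroke 8 the lowest, and Mmp3 at 1.33 to 9.44 CPM after stroke (median 4.43). Against a floor of 3 counts over the 6 controls, Mmp10 was at least 2453-fold higher, Mmp13 at least 1703-fold and Mmp3 at least 573-fold, and all 3 were called (adjusted p = 5.3e-06, 1.6e-05 and 1.3e-05). They stood beside 0 CPM in microglia and 0.00708 and 1.77 CPM in astrocyte libraries for Mmp10, 0 CPM in microglia and 0 and 1.23 CPM in astrocyte libraries for Mmp13 and 0 CPM in microglia and 0.220 and 2.14 CPM in astrocyte libraries for Mmp3. Mmp9, a gelatinase, rose by 7.69 ± 0.86 (adjusted p = 1.5e-05) and Mmp12, the macrophage elastase, by 7.61 ± 0.84 (adjusted p = 1.3e-05) on the log2 scale. Mmp9 reached a median of 13.6 CPM, beside 0 CPM in microglia and 0.239 and 0.188 CPM in astrocyte libraries. Mmp12 reached one of 16.0 CPM, beside 0.511 CPM in microglia and 2.46 and 30.3 CPM in astrocyte libraries. Mmp9 is also a neutrophil product, and the neutrophil sum was higher in all 6 stroke libraries. That sum was mostly Csf3r, with a mean of 21.4 of 21.8 CPM after stroke, and Csf3r stood at 855 CPM in microglia. Stroke 2 had the highest sum (40.4 CPM) and the lowest Mmp9 after stroke (3.82 CPM). Stroke 10 had the highest Mmp9 (72.0 CPM) with a sum of 16.0 CPM. The part of neutrophils was not tested. The Mmp9 value was 6.81 without stroke 10 and 8.61 without control 7, and that of Mmp12 was 7.01 without stroke 8. In all, 12 of 21 proteases and inhibitors rose, 1 fell and 8 did not pass, beside 11.7% higher and 8.77% lower over all genes tested.

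Matrix and TGF-beta genes rose in 18 of 24 cases, with 1 lower and 5 not passing. Over all genes tested, 11.7% were higher and 8.77% lower. Fn1, fibronectin, which hinders precursors from maturing, rose from 1.10 to 2.06 CPM in the controls (median 1.60) to 6.26 to 16.4 CPM after stroke (median 10.8). The groups did not overlap (log2 2.82 ± 0.24, adjusted p = 1.5e-06), beside 244 CPM in microglia and 2.46 and 9.11 CPM in astrocyte libraries. Sparc, a matrix-binding glycoprotein, rose by 1.46 ± 0.13 (adjusted p = 2.2e-06) and Itgav, an integrin subunit that binds fibronectin, by 0.71 ± 0.08 (adjusted p = 2.4e-05). Serpine2, a secreted inhibitor of serine proteases, was at 1489.8 to 1956 CPM in the controls (median 1625) and 1345 to 1722 CPM after stroke (median 1681). These ranges overlapped (log2 -0.02 ± 0.08, adjusted p = 0.88). Lrp1, the endocytic receptor that takes up such inhibitors, was at 315 to 541 CPM in the controls (median 454) and 394 to 703 CPM after stroke (median 557), also overlapping. Its log2 change of 0.34 ± 0.14 (adjusted p = 0.1) did not pass, though it did without stroke 8 (0.41). Of 13 genes of the purine and Serpine2 list, 3 rose, 1 fell and 9 did not pass, with a median log2 change of 0.02. Over all genes tested, the shares were 11.7% and 8.77%, as above. Among its purine genes, the ectonucleotidase Entpd1 rose by 0.72 ± 0.13 (adjusted p = 0.0012) and the adenosine receptor Adora2b fell by 0.88 ± 0.15 on the log2 scale (adjusted p = 7.9e-04).

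A set of genes of small p-value, chosen after their values were seen, was at a median of 0 CPM in the microglia P2 stroke libraries. Col16a1, a collagen associated with fibrils (ENSMUSG00000040690, chromosome 4, 130047840 to 130099283 on the plus strand), was at 13.9 to 19.5 CPM in the controls (median 16.3) and 69.4 to 116 CPM after stroke (median 86.5). The groups were far apart, and the log2 change was 2.44 ± 0.12 (adjusted p = 4.6e-08), beside 0 CPM in microglia and 26.6 and 36.4 CPM in astrocyte libraries. Fstl4, a secreted protein of the follistatin family, was at 4.48 to 6.56 CPM in the controls (median 5.09) and 20.3 to 35.1 CPM after stroke (median 30.3). All 6 stroke libraries were higher (log2 2.48 ± 0.14, adjusted p = 1.3e-07), beside 0 CPM in microglia and 10.2 and 4.51 CPM in astrocyte libraries. Col11a1, a fibrillar collagen, was at 9.82 to 15.6 CPM in the controls (median 11.9) and 41.9 to 76.0 CPM after stroke (median 52.7), again with no overlap (log2 2.15 ± 0.14, adjusted p = 3.1e-07), beside 0 CPM in microglia and 5.27 and 9.64 CPM in astrocyte libraries. Col20a1, another collagen associated with fibrils, was at 21.9 to 44.9 CPM in the controls (median 25.8) and 103 to 143 CPM after stroke (median 116). Its groups did not overlap either (log2 2.00 ± 0.15, adjusted p = 6.7e-07), beside 0 CPM in microglia and 1.12 and 1.73 CPM in astrocyte libraries. Col3a1, a fibroblast collagen, rose from 0.857 to 18.2 CPM (medians). Dcn, the proteoglycan decorin of fibroblasts, rose from 2.28 to 13.6 CPM (medians). Both were likewise at 0 CPM in the microglia P2 stroke libraries. The fibroblast sum was higher in all 6 stroke libraries, and its part in these values was not tested.

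The early response list and the hypoxia and glycolysis list are set beside 11.7% higher and 8.77% lower over all genes tested. Early response genes split. Of 21, 6 rose, 4 fell and 11 did not pass. Fos, a component of the AP-1 factor, was at 3.02 to 11.3 CPM in the controls (median 5.45) and 30.1 to 91.1 CPM after stroke (median 35.4). The groups did not overlap and stroke 8 was the highest (log2 2.87 ± 0.33, adjusted p = 2.0e-05, and 2.53 without stroke 8). Fos stood beside 0 CPM in microglia and 71.6 and 81.9 CPM in astrocyte libraries. Myc, which drives growth, rose by 1.21 ± 0.17 (adjusted p = 1.0e-04), and Gadd45g, a stress-induced gene of the DNA damage list, by 1.74 ± 0.17 (adjusted p = 4.8e-06). Hypoxia and glycolysis genes likewise split, with 4 higher, 6 lower and 13 not passing of 23 (3 lower without control 9, without stroke 1, 2 or 3, or under scaling to library totals alone). Hk2, a hexokinase, rose from 2.78 to 10.2 CPM (medians), beside 282 CPM in microglia and 5.20 and 17.4 CPM in astrocyte libraries. Ndrg1, a hypoxia-induced gene that is also needed for peripheral myelin, fell from 113 to 168 CPM in the controls (median 153) to 67.4 to 96.1 CPM after stroke (median 77.9), with no overlap, by 0.87 ± 0.10 on the log2 scale (adjusted p = 2.2e-05). Aldoa, an enzyme of glycolysis, fell by 0.44 ± 0.06 on the log2 scale (adjusted p = 1.5e-04).

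Transcripts typical of other cells were among the changes. C1qa, a complement subunit made by microglia, was at 4.72 to 11.9 CPM in the controls (median 6.13) and 72.2 to 127 CPM after stroke (median 98.9), without overlap (log2 3.80 ± 0.23, adjusted p = 1.4e-07). It stood beside 1004 CPM in the microglia P2 stroke libraries and 70.6 and 300.1 CPM in astrocyte libraries. P2ry12, a receptor of resting microglia, rose less, by 1.71 ± 0.27 (adjusted p = 3.7e-04). The lysosomal protein Cd68 rose by 4.26 on the log2 scale. Of 20 genes known from disease-associated microglia, 18 rose, beside 11.7% of all genes tested. Gfap, the intermediate filament of reactive astrocytes, was at 62.1 to 169.7 CPM in the controls (median 78.1) and 580.1 to 2467 CPM after stroke (median 885), with stroke 8 far above the rest (log2 3.53 ± 0.37, adjusted p = 9.0e-06). Gfap stood beside 0.316 CPM in microglia and 16940.2 and 23939.9 CPM in astrocyte libraries. Aqp4, a water channel of astrocytes, rose by 3.39 ± 0.35 (adjusted p = 8.8e-06), while the astrocyte glutamate transporter Slc1a2 did not pass (log2 -0.06). Without stroke 8 the log2 changes of Gfap and Aqp4 were 3.15 and 2.88. Among the 10 largest decreases were neuronal transcripts. Penk, the precursor of enkephalin, was at 44.0 to 60.9 CPM in the controls (median 55.3) and 6.92 to 33.1 CPM after stroke (median 13.7), with no overlap (fall of 1.82 ± 0.31 on the log2 scale, adjusted p = 6.4e-04). Sst, somatostatin, fell by 1.71 on the log2 scale, and by 1.00 without control 12. Of 12 neuronal markers 7 fell, against 2 once the 3 libraries that stood apart were left out. Ttr headed the decreases, but its fall of 5.50 ± 1.48 on the log2 scale (adjusted p = 0.016) rested on control 11, without which it was at -2.15 and did not pass.

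To see where the change in the OPC libraries differed from that of other cells, the 51 libraries labelled OPC, astrocyte, EC and pericyte were fitted together and the stroke changes subtracted. Of 25257 genes, 126 (0.499%) differed from all 3 others with 1 sign, 108 with a higher OPC change (0.428%) and 18 with a lower one (0.0713%). These counts moved with single libraries: the higher count was 63 without control 4, 68 without control 7 or stroke 5 and 70 without control 9. The lower count was 58 without control 12, 49 without stroke 8, 40 without control 7, 36 without control 9, 35 without control 11 or stroke 5 and 30 without stroke 3. The difference from the astrocyte change alone was called for 360 genes (1.43%).

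Among those of at least 10 CPM, the 8 genes whose smallest of the 3 differences was largest were Col4a6, Ptx3, Agt, Tgm1, A2m, Col4a5, Cxcl10 and Rasgef1c. Rasgef1c, an exchange factor for Ras-like GTPases, had nearly equal differences from the other 3: it changed by 2.72 in OPC and by -0.50, -0.60 and -0.48 in the astrocyte, EC and pericyte libraries (joint fit, log2), and the smallest difference was 3.20. Col4a6 and Col4a5, chains of basement membrane collagen, had smallest differences of 5.09 and 3.26, and without stroke 8 of 3.84 and 2.23. Col4a6 was at 0 to 0.569 CPM in the controls (median 0.0381) and 3.02 to 37.8 CPM after stroke (median 5.44), so that stroke 8 alone made the upper end. Ptx3, a long pentraxin of innate immunity, went from 4.05 to 2.82 and Agt, the precursor of angiotensin, from 4.04 to 3.15 when stroke 8 was left out. A2m, a broad protease inhibitor, went from 3.56 to 2.87, and Tgm1, a transglutaminase, from 3.95 to 3.33 with its call lost, as it was without control 4. Against control alone these genes rose by 6.04 (Col4a6), 5.82 (Ptx3), 4.13 (Agt), 4.39 (A2m), 4.07 (Col4a5) and 5.96 (Tgm1) on the log2 scale. Those values became 4.94, 4.72 and 3.32 for Col4a6, Ptx3 and Agt, and 3.20 for Col4a5, without stroke 8. Without control 6 the Col4a6 value was 7.09, and without control 12 the Tgm1 value was 6.85. In the astrocyte controls, the means of Agt, A2m, Ptx3 and Tgm1 were 99.3, 82.2, 31.9 and 31.0 CPM, above their OPC stroke medians of 11.0, 14.1, 6.86 and 10.5 CPM. Those of Col4a5 and Col4a6 were 10.3 and 5.47 CPM against 8.20 and 5.44 CPM, and those of Cxcl10 and Rasgef1c were 22.8 and 10.5 CPM against 32.0 and 20.6 CPM. The astrocyte sum of the OPC libraries was highest in stroke 8 too, and its part in these differences was not tested.

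Some genes of the groups above also differed from all 3 others. C4b changed by 3.29 in OPC and by at most 0.19 elsewhere, and Fos by 2.87 against 0.13 to 0.16. Fstl4 changed by 2.47 against -1.20 (astrocyte), -0.40 (EC) and -0.87 (pericyte), and Col16a1 by 2.43 against 0.41, 0.78 and 0.83. Of the interferon list, 4 of 29 genes passed all 3 tests, including Ifih1, at 2.90 in OPC, 0.55 in astrocyte, 0.28 in EC and 0.97 in pericyte libraries. Gfap also passed (3.53 against 0.41 to 0.48), from a start of 16940.2 CPM in the astrocyte controls and 78.1 CPM (median) in the OPC controls. None of the 26 genes of mature oligodendrocytes passed all 3 tests. Mal changed by -1.31 in OPC and by -0.06 and 0.03 in astrocyte and EC libraries, differences that passed (adjusted p = 0.0091 and 0.003), but by -1.14 in pericyte libraries (difference -0.17, standard error 0.27, adjusted p = 0.71). Mki67 changed by 1.45 in OPC and by 1.97, 2.03 and 2.86 in the others, and none of its differences passed.

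**Figure D5:**
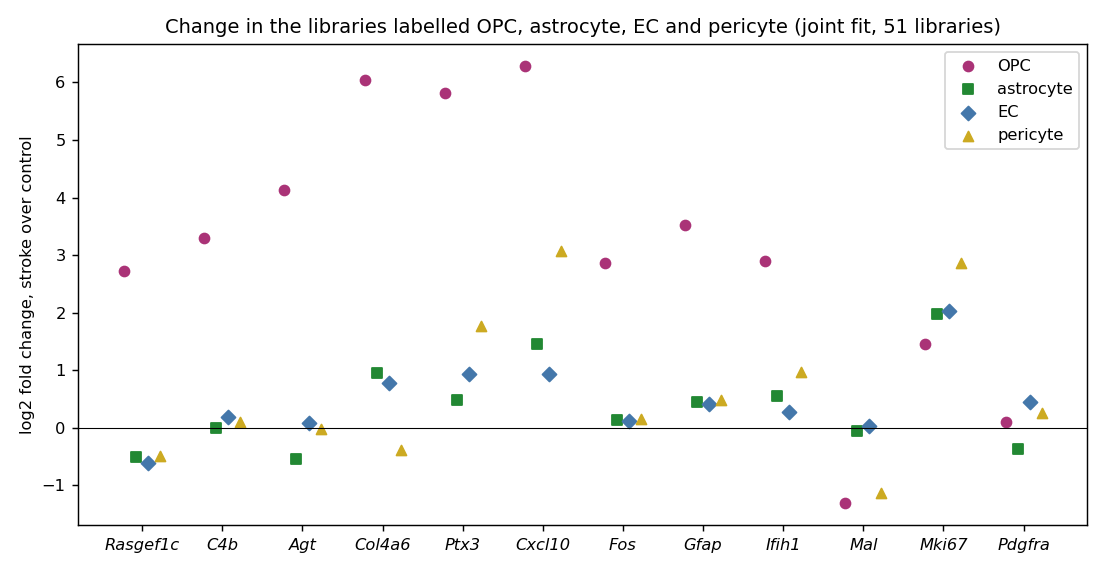
Log2 fold change of stroke over control in the joint fit for 12 genes in the libraries labelled OPC, astrocyte, EC and pericyte. Rasgef1c and C4b changed in OPC by 2.72 and 3.29 with the other 3 near or below 0, Mal stood at -1.31 in OPC and -1.14 in pericyte libraries, and Pdgfra was near 0.09 in OPC.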

How the data were processed

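The authors deposited raw counts per gene for each cell type. Per the submitters' processing notes, reads were handled with bcl2fastq 2.20, STAR and HTSeq on GRCm38; the versions of the last 2 and the annotation release were not given in the sources used here, and the column names of the deposited count tables begin with "hisat". Libraries were made from low-input total RNA with SMART-Seq v4, per the labels' protocols, which keeps no strand and uses no molecular identifiers, so overlapping genes cannot be told apart. Gene names and coordinates came from GENCODE vM21.

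Genes that passed filterByExpr were tested with edgeR 4.0.16 (quasi-likelihood, TMM scaling, R 4.3.3) between the 6 stroke and 6 control libraries, with Benjamini-Hochberg adjustment over all genes tested and a threshold of 0.05. Values after ± are standard errors, taken as the size of the log2 fold change over the square root of the test's F statistic. Levels in CPM use TMM-scaled library sizes. Responses were compared in 1 joint fit of 51 libraries (8 groups). Libraries labelled microglia were used for levels only, and levels set across tables were scaled within each. The steps were checked on simulated counts. DESeq2 1.42.0, other scalings, filters and left-out libraries were alternatives. The named genes followed a rule (the 10 largest increases and decreases at a mean of 10 CPM or more in the higher OPC group, up to 4 called members per list by p, leading markers, 8 genes of the joint fit with the same minimum), and list members that did not pass are named to account for the counts. Other genes were chosen after their values were seen, as said beside them or here. Isg15, H2-K1, Serpina3n, Klk6, Bcas1, Myrf, Opalin, Top2a, Ccnd1, Serpine2 and Lrp1 are of this kind. The genes, lists and libraries left out were chosen with earlier results of these data known. 233 gene IDs had no symbol. Some members of the lists are counted but not reported singly here.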

Additional observations from a re-analysis of the deposited data

Results flagged for a closer look

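268 groups of 6 libraries were checked (120 genes and the cell type marker sums, each in both conditions). Of these, 40 held 1 library far from the other 5, or 14.9%. The cutoff flags about 1 in 20 groups of independent, normally distributed values. These groups share libraries, and their CPM values were not shown to be normal, so that rate is no baseline for the 14.9%. Stroke 8 accounted for more of the 40 than any other library. It held the highest level after stroke of Serpina3n (1570 CPM), Socs3 (73.9 CPM), Tnfrsf1a (87.9 CPM), Mmp12 (47.7 CPM), Cd44 (78.2 CPM), Col4a6 (37.8 CPM), Tgm1 (34.5 CPM), Ptx3 (48.3 CPM), Agt (52.2 CPM), A2m (47.0 CPM), Col4a5 (44.6 CPM), Id1 (46.5 CPM), Id3 (352 CPM), Fos (91.1 CPM), Aqp4 (622 CPM) and the astrocyte sum (4280 CPM). It held the lowest Pdgfra (829 CPM) and Serpine2 (1350 CPM). Stroke 2 was highest for Klk6 (35.3 CPM), H2-Ab1 (32.4 CPM), Penk (33.1 CPM), Sst (13.6 CPM) and the lymphocyte sum (3.42 CPM), and stroke 10 for Mmp9 (72.0 CPM).

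Among the controls, control 12 was highest for Psmb9 (2.75 CPM), Cxcl10 (1.47 CPM), Cxcl13 (0.922 CPM), Sst (74.1 CPM), Snap25 (433 CPM) and the neuronal sum (1270 CPM). Control 6 was highest for Klk6 (5.12 CPM), Serpina3n (272 CPM), Tnfrsf1a (38.9 CPM), Cd44 (2.28 CPM), Sparc (131 CPM) and Ptx3 (0.553 CPM). Control 7 was highest for Mmp9 (0.335 CPM) and the mural sum (711 CPM), and control 11 for Ttr (250 CPM) and the choroid plexus sum (276 CPM).

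By the tests of the joint fit, 108 genes had a higher change in the OPC libraries than in astrocyte, EC and pericyte libraries. Among those of at least 10 CPM, the 8 largest of the smallest differences are given on the log2 scale. They were 5.095 (Col4a6), 4.053 (Ptx3), 4.041 (Agt), 3.95 (Tgm1), 3.562 (A2m), 3.26 (Col4a5), 3.216 (Cxcl10) and 3.201 (Rasgef1c). Without stroke 8 they became 3.84 for Col4a6, 2.82 for Ptx3 and 3.27 for Cxcl10. Tgm1 lost its call without stroke 8 or without control 4.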

How the results depend on the processing

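The number of genes called was 3467 to 4437 under the other scalings, filters and DESeq2, and 3041 to 3936 with single libraries left out. Leave-one-out ranges were 1853 to 2293 for genes higher, 1188 to 1679 for genes lower, 1161 to 1347 for changes of at least 2-fold, 63 to 121 for genes with a higher OPC change than the 3 other cell types and 13 to 58 for a lower one. Library totals alone gave 3347 higher and 804 lower, an 80.6% share higher against 57.2%. For genes with a lower OPC change, the filter of 1 CPM in 5 libraries gave 43, and leaving out control 11, control 12 and stroke 8, chosen after seeing the data, gave 51. Of 120 genes followed, no called gene changed direction in any setting run; Olig1 lost its call under library totals, Pcdh15 with no filter on low counts, and Matn4, Sst, Ttr and Snap25 without those 3 libraries; DESeq2 gave no adjusted p for Ttr. The causes were not tested. No paired analysis was possible because the control and stroke libraries share no replicate number. Genes near 0 in the controls have wide standard errors, 0.89 for Mmp10. Mmp10 had 0 counts in all controls, so its value measures no spread between controls.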

Other observations

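Counts for further lists of basic cell function follow, beside shares of 11.7% higher and 8.77% lower over all genes tested. Of 17 genes of oxidative phosphorylation, 2 fell, none rose and 15 did not pass. Of 17 glutamate, GABA and ion channel genes, 1 rose (Grm5), 3 fell and 13 did not pass; the falls became 0 without stroke 1 or under scaling to library totals alone, and 1 without control 7, 9 or 11 or stroke 3, 5 or 10. Of 21 genes of the unfolded protein, amino acid and heat stress list, 2 rose, 4 fell (2 under scaling to library totals alone) and 15 did not pass; Phgdh, the first enzyme of serine synthesis, fell from 211 to 263 CPM in the controls (median 256) to 159.6 to 183 CPM after stroke (median 169.7), without overlap (fall of 0.55 ± 0.07 on the log2 scale, adjusted p = 3.4e-05). Of 14 genes of the p53 and DNA damage list, 6 rose, 1 fell and 7 did not pass. Of 11 iron and heme genes, 2 rose and 4 fell, against 3 and 2 without control 11, control 12 and stroke 8 together; the falls were 2 without stroke 1 or stroke 3 and 1 without stroke 10 or under scaling to library totals alone.

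Plek, pleckstrin of platelets and leukocytes, chosen after its values were seen, had the smallest p-value of the whole table. It was at 2.30 to 3.54 CPM in the controls (median 3.30) and 25.4 to 34.1 CPM after stroke (median 28.0), with no overlap (log2 3.23 ± 0.14, adjusted p = 9.0e-09), beside 829.6 CPM in the microglia P2 stroke libraries. Ctsz, a lysosomal protease that led the list of disease-associated microglia by p, was at 49.4 to 66.1 CPM in the controls (median 58.7) and 153 to 214 CPM after stroke (median 177), also with no overlap (log2 1.60 ± 0.09, adjusted p = 1.3e-07). Ctsz stood beside 672 CPM in the microglia P2 stroke libraries and 228 and 554 CPM in astrocyte libraries.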
